A study of Homo sapiens with 12 samples.

Results

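The 41 genes described here encode proteins that bring cells into mitosis, build the spindle, attach chromosomes to it and divide the cell. They were taken as a list of symbols drawn up with earlier results of these data known. All 41 listed symbols were found among the 59427 in the deposited table, and all 41 reached 1 TPM in at least 1 line, as did 13108 genes in all. TPM (transcript abundance scaled to a fixed total) is a level per transcript length, so levels of different genes can be set side by side. The study sequenced total RNA of the MCF10 progression series, 4 human lines of breast epithelium, with 3 libraries for each by the labels and 12 in all. MCF10A is the immortalised, non-tumorigenic parent, labelled as the normal stage. The labels name a stage transformed by the HRAS allele G12V without naming its line, and it was taken here to be MCF10AT1 from general knowledge of the series. MCF10DCIS stands for ductal carcinoma in situ and MCF10CA1a for the metastatic stage. Every line was cultured in DMEM:F12 with hydrocortisone, cholera toxin, EGF, insulin and horse serum, and the labels name no further treatment. From the same general knowledge, the last 2 lines were derived from xenografts of MCF10AT cells and share that HRAS background. Each stage is 1 cell line, and a difference between stages cannot be told apart from a difference between lines.

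The deposited table holds 1 value per gene and line, the authors' mean, so no difference below has an SD, a standard error, an n or a test. Whether a difference exceeds the spread between libraries is unknown. A gene is called higher or lower in a comparison when log2(TPM + 1) differs by at least 1, a 2-fold difference, and this is a rule of size only. In bulk RNA, fewer dividing cells and less of these RNAs in each dividing cell cannot be told apart.

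Most of these genes are transcribed in a wave late in the cell cycle, so their RNA is most abundant in G2 and mitosis. Their summed level depends in part on the share of dividing cells in a culture, which these data do not give. Many of their promoters carry the cell cycle homology region, a short element close to the transcription start that is bound by the DREAM complex in resting cells and by MYB-MuvB and FOXM1 in dividing cells, together with CCAAT boxes bound by NF-Y. At mitotic exit the anaphase-promoting complex has many of the encoded proteins degraded, so RNA and protein levels need not move together.

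The shared promoter elements are shown for 6 genes that the results below turn on, as the 150 bases before an annotated start (RefSeq, GRCh38.p14, written 5′ to 3′ on the strand of the gene). Capitals mark TTTGAA or TTCGAA, the core of the cell cycle homology region, and CCAAT. Their reverse complements on the other strand read TTCAAA and ATTGG, and where matches overlap or adjoin the capitals run together. CCNB2 and CDK1 hold both kinds of letters, PLK1 likewise, ANLN and BUB1B hold the first kind alone, and PTTG1 holds CCAAT alone.
CCNB2, chr15:59104996-59105145, plus strand: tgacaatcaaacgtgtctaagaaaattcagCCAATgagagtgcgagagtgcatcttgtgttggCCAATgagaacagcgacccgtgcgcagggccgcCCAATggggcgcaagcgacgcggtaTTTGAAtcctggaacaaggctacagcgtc
CDK1, chr10:60778328-60778477, plus strand: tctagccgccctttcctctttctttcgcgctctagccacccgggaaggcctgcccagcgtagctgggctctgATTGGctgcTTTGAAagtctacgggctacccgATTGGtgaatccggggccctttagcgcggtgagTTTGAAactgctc
PLK1, chr16:23678739-23678888, plus strand: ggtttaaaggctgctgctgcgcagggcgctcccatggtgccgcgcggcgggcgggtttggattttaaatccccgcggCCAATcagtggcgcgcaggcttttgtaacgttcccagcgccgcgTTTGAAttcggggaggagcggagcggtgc
ANLN, chr7:36389712-36389861, plus strand: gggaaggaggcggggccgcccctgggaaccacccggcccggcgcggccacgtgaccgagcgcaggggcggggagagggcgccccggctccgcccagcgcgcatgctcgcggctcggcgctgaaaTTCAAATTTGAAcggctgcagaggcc
BUB1B, chr15:40160919-40161068, plus strand: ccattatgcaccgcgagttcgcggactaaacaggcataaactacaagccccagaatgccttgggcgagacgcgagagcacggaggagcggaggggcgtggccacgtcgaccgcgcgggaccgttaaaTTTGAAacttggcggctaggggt
PTTG1, chr5:160421705-160421854, plus strand: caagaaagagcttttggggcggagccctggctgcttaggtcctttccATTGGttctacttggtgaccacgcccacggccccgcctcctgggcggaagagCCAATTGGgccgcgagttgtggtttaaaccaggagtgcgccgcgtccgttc

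Of the 41 genes, 35 had a promoter in the RefSeq table, which covers 250 bases before to 50 after each start. UBE2C, TTK, TPX2, FOXM1, AURKA and BIRC5 had none. TTTGAA or TTCGAA, searched on both strands, occurred in 26 of the 35 (74.3%), a gene counting when any of its promoters held it. The shares were 15.3% of the 9218 protein-coding genes tested here that the table holds and 19.5% of all its 27305 genes. CCAAT occurred in 29 of the 35 (82.9%), compared with 43.7% of those protein-coding genes and 39.7% of all genes it holds. Both kinds stood together in 22 of the 35 (62.9%), compared with 6.53% and 7.85%. Within 50 bases of a start, TTTGAA or TTCGAA was found in 22 of the 35, compared with 4.82% of the protein-coding genes. The 9 genes without these letters in the window were AURKB, CCNA2, CCNB1, CENPE, KIF20A, KIF2C, NEK2, PTTG1 and SPC24. The median log2 difference in MCF10AT1 minus MCF10A was 0.02 for the 26 genes with the letters and 0.17 for the 9 without. In MCF10DCIS minus MCF10A it was -0.49 and -0.41, in MCF10CA1a minus MCF10A 0.16 and 0.33, and in MCF10CA1a minus MCF10DCIS 0.71 and 0.68.

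Across the lines the summed level of the 41 genes was 1542 TPM in MCF10A and 1511 in MCF10AT1, against 1094 in MCF10DCIS and 1803 in MCF10CA1a. By this sum MCF10DCIS was the lowest line and MCF10CA1a the highest. The median of the 41 was 23.1 TPM in MCF10A and 23.0 in MCF10AT1, against 16.4 in MCF10DCIS and 23.5 in MCF10CA1a. By the median, MCF10CA1a was thus about level with MCF10A and MCF10AT1. Of the 41 genes, 38 had their lowest level in MCF10DCIS, where 57.3% of all genes tested also had theirs, and 23 had their highest in MCF10CA1a, compared with 28.7% of all genes. BUB1B, CCNB2 and PTTG1 were the 3 exceptions, each lowest in MCF10A. Levels spanned more than an order of magnitude within a line: CENPE was the lowest of the 41 in every line, at 3.02 to 6.37 TPM, while ANLN was the most abundant in MCF10A at 187 TPM and PTTG1 in the other 3 lines at 230.4 to 304 TPM.

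The make-up of the libraries differed in MCF10DCIS as well. Structural and small non-coding RNAs took 66.0% of the TPM in MCF10DCIS and 57.6% to 60.0% in the other lines. On a second scale, called rescaled TPM, these RNAs, the mitochondrially encoded RNAs and the ribosomal protein RNAs were left out and the other genes were brought back to 1000000. The 41 genes then summed to 4499 in MCF10A and 4824 in MCF10AT1, against 4130 in MCF10DCIS and 5819 in MCF10CA1a. The order of the highest and the lowest line stayed, but MCF10AT1 now stood above MCF10A, and the number of genes lowest in MCF10DCIS was 24, compared with 36.2% of all genes. MCF10CA1a held the highest rescaled level of 26 genes, compared with 28.5% of all genes. The plot of levels by line shows the deposited values of all 41 genes by role.

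**Figure D1:**
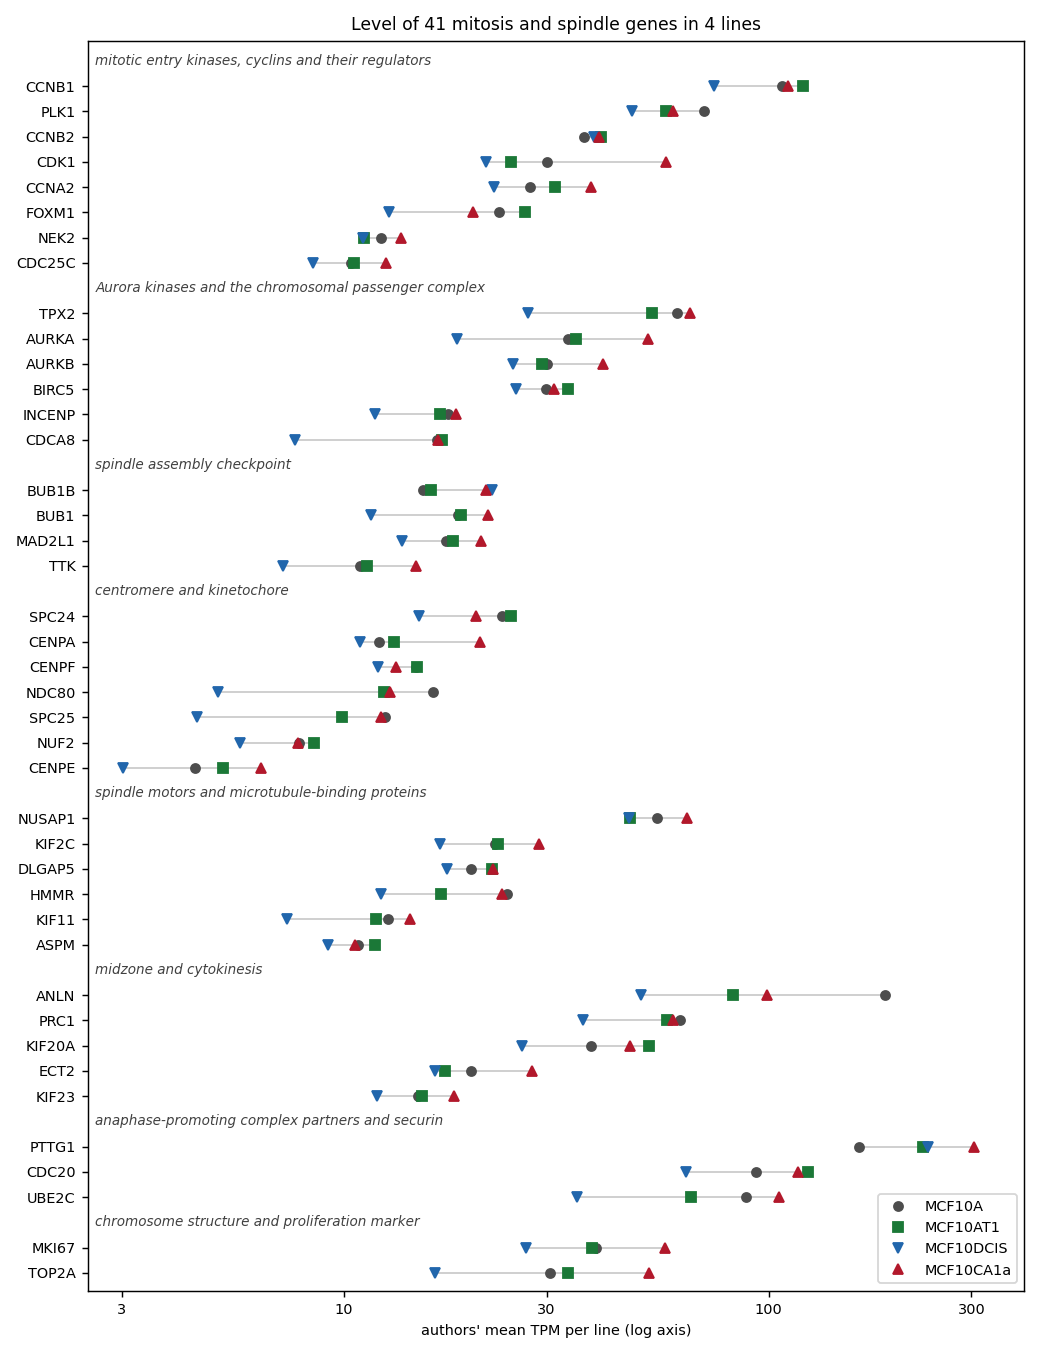
Authors' mean TPM (log axis) of the 41 mitosis and spindle genes in the 4 lines, 1 symbol per line, grouped by role, with a grey bar from the lowest to the highest line and no error because the table holds 1 value per line. The MCF10DCIS triangle is leftmost for 38 genes, the MCF10CA1a triangle is rightmost for 23, and ANLN spans 49.96 to 187 TPM.

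Among the regulators of mitotic entry, CDK1 differed most between lines. CDK1, the kinase whose activity with cyclin B starts mitosis, lies on chr10:60778331-60794852 (GRCh38, plus strand). It stood at 30.04 TPM in MCF10A and 24.7 in MCF10AT1, against 21.6 in MCF10DCIS and 57.4 in MCF10CA1a, so MCF10CA1a stood apart from 3 close lines. Its cyclin partners had smaller differences between lines. CCNB1, the main mitotic cyclin, was at 107, 121, 74.3 and 111 TPM in the same order of lines, and MCF10DCIS was its low line. CCNB2, the second B-type cyclin, was nearly level at 36.8, 40.3, 38.8 and 39.8 TPM, the narrowest deposited span of the 41 genes (1.10-fold). After rescaling, the span of CCNB2 was 1.36-fold, with its highest level in MCF10DCIS. CCNA2, cyclin A2, which acts in S phase and G2, was at 27.4, 31.5, 22.6 and 38.3 TPM, highest in MCF10CA1a. As a result the ratio of CCNB1 to CDK1 was 3.58 in MCF10A and 4.89 in MCF10AT1, against 3.44 in MCF10DCIS and 1.93 in MCF10CA1a, and that of CCNB2 to CDK1 was 1.22, 1.63, 1.79 and 0.69.

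PLK1, the kinase that promotes centrosome maturation and mitotic entry, was at 70.6 TPM in MCF10A and 57.3 in MCF10AT1, against 47.7 in MCF10DCIS and 59.6 in MCF10CA1a. It is one of 3 genes with the highest level in MCF10A on both scales, and on the rescaled scale its span was 1.15-fold. FOXM1, a transcription factor that drives many of the other genes here, was at 23.1, 26.7, 12.8 and 20.1 TPM, so unlike most of the group it was lower in MCF10CA1a than in MCF10A. CDC25C, the phosphatase that activates CDK1, ran from 8.47 TPM in MCF10DCIS to 12.6 in MCF10CA1a. NEK2, a centrosomal kinase, ran from 11.1 TPM in MCF10DCIS to 13.6 in MCF10CA1a.

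The Aurora kinases and their partners had their lowest deposited levels in MCF10DCIS, by unequal amounts. On the rescaled scale AURKB and BIRC5 were lowest in MCF10A instead. AURKA, the kinase of centrosomes and spindle poles, was at 33.7 TPM in MCF10A and 35.3 in MCF10AT1, against 18.4 in MCF10DCIS and 52.0 in MCF10CA1a. TPX2, which activates AURKA on spindle microtubules, was at 60.7, 53.1, 27.1 and 65.4 TPM. Both genes lie on chromosome 20 and had clear minima in MCF10DCIS, but the ratio of TPX2 to AURKA ran from 1.80 in MCF10A to 1.26 in MCF10CA1a.

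AURKB is the kinase of the chromosomal passenger complex, which corrects faulty attachments, and INCENP, BIRC5 (survivin) and CDCA8 (borealin) are its other subunits. AURKB was at 29.99 TPM in MCF10A and 29.3 in MCF10AT1, against 25 in MCF10DCIS and 40.6 in MCF10CA1a. CDCA8 was at 16.5, 17.1, 7.65 and 16.6 TPM, so it was level in 3 lines and low in MCF10DCIS. The ratio of CDCA8 to AURKB was 0.55, 0.58, 0.31 and 0.41, which separates MCF10DCIS and MCF10CA1a from the other lines. BIRC5 ranged from 25.5 TPM in MCF10DCIS to 33.7 in MCF10AT1 and INCENP from 11.8 in MCF10DCIS to 18.4 in MCF10CA1a. RNAs of subunits of 1 complex were therefore not in the same proportions in the 4 lines.

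BUB1B departed from the other genes of the spindle assembly checkpoint, the signal that holds back anaphase until every kinetochore is attached. BUB1B encodes BubR1, a component of the inhibitory complex, and was at 15.3 TPM in MCF10A and 16.0 in MCF10AT1, against 22.3 in MCF10DCIS and 21.6 in MCF10CA1a. It was the 1 gene of the 41 with its highest deposited level in MCF10DCIS, where 7.74% of all genes had theirs. BUB1, the related kinetochore kinase, was at 18.6, 18.9, 11.6 and 21.9 TPM, with MCF10DCIS lowest. The ratio of BUB1B to BUB1 was 0.82 in MCF10A and 0.85 in MCF10AT1, against 1.92 in MCF10DCIS and 0.99 in MCF10CA1a. MAD2L1, which binds and blocks CDC20, ran from 13.7 TPM in MCF10DCIS to 21.0 in MCF10CA1a, and TTK, the kinase that starts the signal, from 7.20 to 14.8 TPM in the same lines.

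Among the kinetochore genes, NDC80 and SPC25 were called lower in MCF10DCIS than in MCF10A. The NDC80 complex, which grips microtubule ends, has 4 subunits: NDC80 and NUF2 form its outer arm, SPC24 and SPC25 its inner one. NDC80 (chr18:2571511-2616635, GRCh38, plus strand) was at 16.3 TPM in MCF10A and 12.4 in MCF10AT1, against 5.06 in MCF10DCIS and 12.8 in MCF10CA1a. Its direct partner NUF2 was at 7.85, 8.52, 5.68 and 7.79 TPM, a much smaller minimum. SPC25 was at 12.5, 9.91, 4.52 and 12.2 TPM, and its partner SPC24 at 23.5, 24.7, 15.1 and 20.4 TPM. In each pair 1 partner had the larger minimum: the ratio of NDC80 to NUF2 was 2.07, 1.46, 0.89 and 1.65, and that of SPC25 to SPC24 was 0.53, 0.40, 0.30 and 0.60.

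CENPA, the histone H3 variant that marks centromeres, was at 12.1 TPM in MCF10A and 13.1 in MCF10AT1, against 10.9 in MCF10DCIS and 20.9 in MCF10CA1a, so MCF10CA1a stood apart from the other lines. CENPE, a kinetochore motor that carries chromosomes to the spindle equator, was at 4.46, 5.18, 3.02 and 6.37 TPM. CENPF, a large protein of the outer kinetochore, was at 14.8, 14.9, 12.04 and 13.3 TPM. On the rescaled scale CENPF had the narrowest span of all 41 genes (1.11-fold).

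Among the spindle motors and microtubule-binding proteins, no gene was more than 2-fold apart between any lines on the log2(TPM + 1) scale. KIF11, the motor that separates the spindle poles, was at 12.7 TPM in MCF10A and 11.9 in MCF10AT1, against 7.35 in MCF10DCIS and 14.3 in MCF10CA1a. KIF2C, a kinesin that depolymerises microtubules at centromeres, ran from 16.8 TPM in MCF10DCIS to 28.8 in MCF10CA1a, and NUSAP1, which bundles microtubules near chromosomes, from 46.8 to 64.3 TPM in the same lines. HMMR, a spindle-pole protein, was at 24.1, 17.0, 12.2 and 23.5 TPM, with MCF10A and MCF10CA1a alike. DLGAP5, which stabilises kinetochore fibres, stayed between 17.5 and 22.4 TPM, and ASPM, a pole-focusing protein, between 9.19 and 11.8 TPM.

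Among the genes of the last steps of division ANLN had the widest span. ANLN (anillin, chr7:36389806-36453791, GRCh38, plus strand) is the scaffold that links actin, myosin and septins in the contractile ring. It was at 187 TPM in MCF10A and 82.5 in MCF10AT1, against 49.96 in MCF10DCIS and 99.2 in MCF10CA1a, the widest deposited span of the 41 genes (3.75-fold) and the 1 member lower by the rule of size in MCF10AT1. ECT2, which activates RhoA to form that ring, was at 19.9, 17.3, 16.4 and 27.8 TPM. The ratio of ANLN to ECT2 was 9.41 in MCF10A and 4.76, 3.05 and 3.57 in the 3 derived lines. PRC1, the bundler of midzone microtubules, was at 61.7, 57.6, 36.6 and 59.6 TPM. KIF20A, a midzone motor, was at 38.2, 52.2, 26.2 and 47.2 TPM, highest in MCF10AT1, and KIF23, the motor of centralspindlin, ran from 11.9 TPM in MCF10DCIS to 18.2 in MCF10CA1a.

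PTTG1 had a higher level in each derived line than in MCF10A, although no difference from MCF10A reached the rule of size on the deposited scale. It encodes securin, which holds separase inactive until anaphase, and lies on chr5:160421822-160428744 (GRCh38, plus strand). PTTG1 was at 164 TPM in MCF10A and 230.4 in MCF10AT1, against 237 in MCF10DCIS and 304 in MCF10CA1a, and MCF10DCIS was not its low line. PTTG1 has near-identical copies in the genome. PTTG2 stayed at 0.0657 to 0.108 TPM and PTTG3P was listed at 0, and how shared reads were assigned is not given in the sources used here. CDC20, the activator that lets the anaphase-promoting complex destroy securin, was at 93.4, 124, 64.0 and 117 TPM. The ratio of PTTG1 to CDC20 was 1.75, 1.86, 3.70 and 2.59, highest in MCF10DCIS. UBE2C, the ubiquitin-conjugating enzyme of the same complex, was at 88.3, 65.6, 35.4 and 106 TPM.

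TOP2A and MKI67 stand for chromosome structure and proliferation. TOP2A, the topoisomerase that untangles sister chromatids, was at 30.6 TPM in MCF10A and 33.6 in MCF10AT1, against 16.4 in MCF10DCIS and 52.2 in MCF10CA1a. MKI67, which encodes the proliferation marker Ki-67, was at 39.2, 38.3, 26.9 and 57.1 TPM. Both were lowest in MCF10DCIS and highest in MCF10CA1a, and MCF10A and MCF10AT1 lay close together between them.

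**Figure D2:**
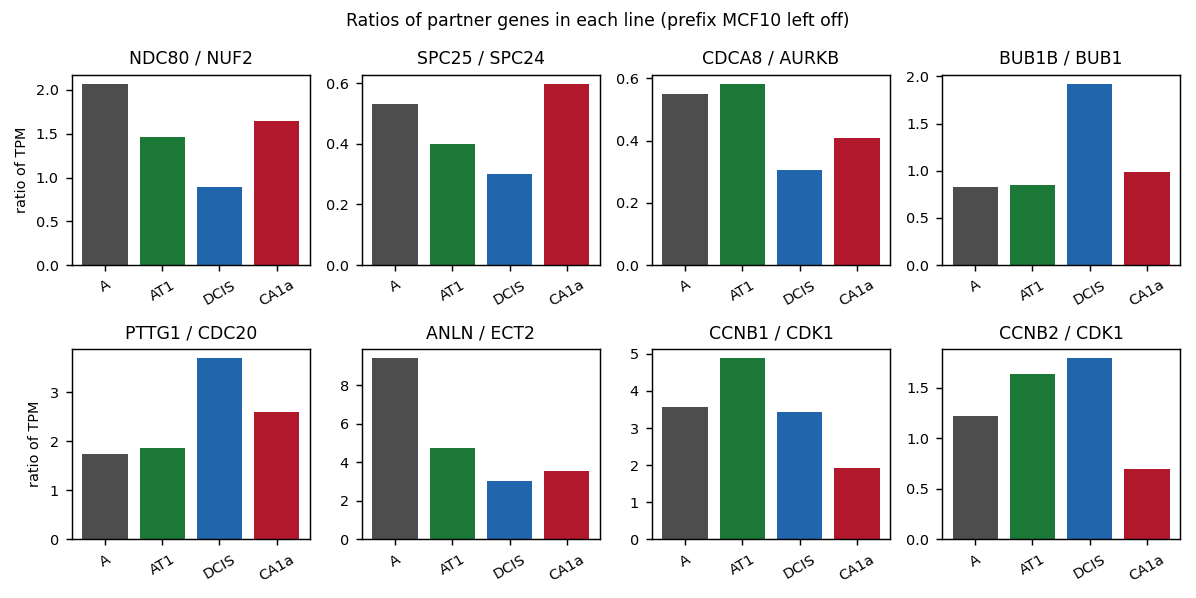
Ratio of the authors' mean TPM of 8 pairs of partner genes in each line (bars start at 0, no error available). NDC80 over NUF2 and CDCA8 over AURKB are lowest in MCF10DCIS, BUB1B over BUB1 and PTTG1 over CDC20 are highest there, and both cyclin B ratios over CDK1 are lowest in MCF10CA1a.

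The pairs in the plot of ratios were picked by known partnership after the values had been seen. A ratio within a line is the same on the deposited and the rescaled scale, and it shows unequal levels, not which partner changed.

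MCF10AT1 against MCF10A compares the stage taken as HRAS-transformed with the parent, as 1 line against another. Apart from ANLN, the mitosis genes were nearly level on the deposited scale. ANLN had a log2 difference of -1.17 and was the 1 member of 41 called lower, with 5.87% of all 13108 genes tested called lower. No member was called higher, with 3.39% of all genes called higher. The median log2 difference of the members was 0.03, beside -0.07 for all genes. Of the 41, 40 lay within 0.5 of 0, compared with 71.5% of all genes, and the interquartile range was 0.25 beside 0.55. The largest positive differences were those of PTTG1 (0.49), KIF20A (0.44) and CDC20 (0.40), all short of the rule of size. After rescaling, ANLN stayed lower at -1.05 (6.65% of all genes lower) and no member was higher (5.83% higher). The members' median was then 0.16, beside 0.04 for all genes. On that scale 37 of the 41 lay within 0.5 of 0, compared with 67.7% of all genes. Besides ANLN, those outside were PTTG1 (0.62), KIF20A (0.58) and CDC20 (0.54).

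In MCF10DCIS against MCF10A, 38 of the 41 genes had a negative difference, compared with 75.3% of all genes tested. Of the 41, 6 passed the rule of size: ANLN (-1.89), NDC80 (-1.51), UBE2C (-1.29), SPC25 (-1.29), TPX2 (-1.14) and CDCA8 (-1.02). Of all genes tested 14.8% were called lower, so the members' count is near the background and not a result about these genes. No member was called higher, with 3.56% of all genes called higher. The members' median was -0.53, beside -0.38 for all genes. On the rescaled scale 3 genes remained lower, ANLN (-1.53), NDC80 (-1.27) and SPC25 (-1.05), with 10.3% of all genes lower, and none was higher, with 7.84% of all genes higher. There 25 of the 41 differences were negative, compared with 56.3% of all genes. The members' median was then -0.17 and that of all genes -0.09. BUB1B (0.51 deposited, 0.89 rescaled) and PTTG1 (0.53 and 0.90) had the largest positive differences on both scales. ANLN and NDC80 were the 2 genes also called lower after quantile normalization and after median-of-ratios scaling. Of all genes, 6.22% and 6.60% were lower under these scalings.

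MCF10CA1a against MCF10A compares the metastatic stage with the parent. The members leaned upward, with 30 of 41 differences positive, compared with 5750 of all 13108 genes. Their median was 0.22 beside -0.07 for all genes. No member passed the rule of size in either direction on the deposited scale, with 5.97% of all genes called higher and 7.14% lower. CDK1 (0.91), PTTG1 (0.89), TOP2A (0.75) and CENPA (0.74) came nearest, and ANLN was lowest at -0.91. With rescaled TPM, CDK1 (1.07) and PTTG1 (1.04) were called higher, with 9.46% of all genes called higher and 7.78% lower, and the median was 0.37 beside 0.05. The 3 comparisons above share the MCF10A values, so their differences are not independent of each other.

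**Figure D3:**
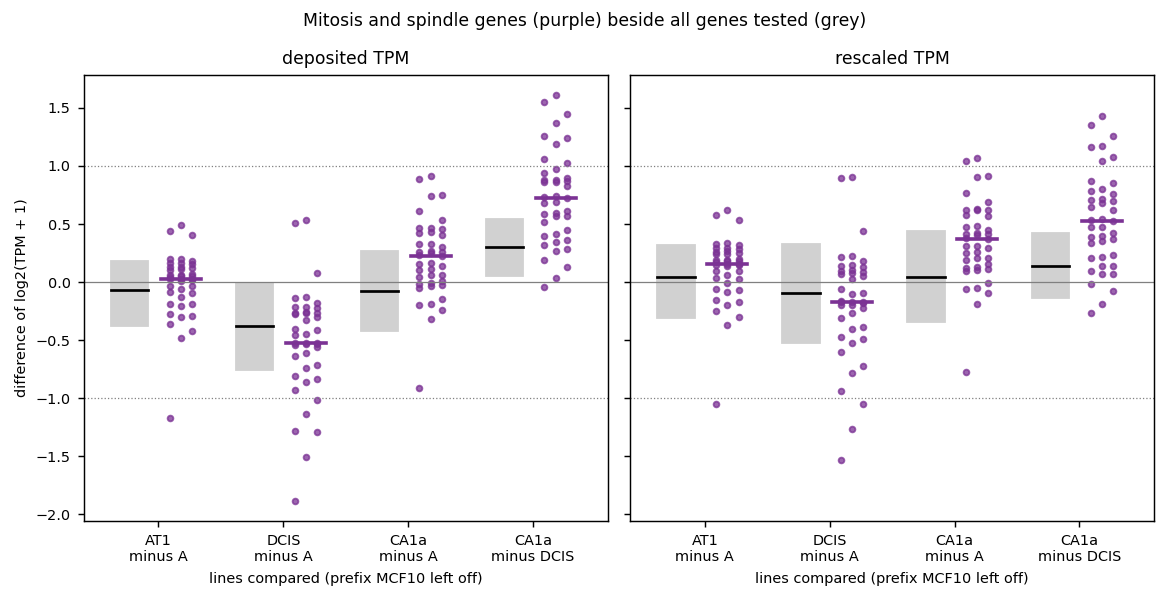
Difference of log2(TPM + 1) for each of the 41 genes (purple points, purple line at their median) beside the interquartile range of all genes tested (grey box, black line at the median) in 4 comparisons, on the deposited and the rescaled scale, with dotted lines at the rule of size of 1. The purple points lie near the grey median in MCF10DCIS minus MCF10A and mostly above it in MCF10CA1a minus MCF10DCIS, where the medians are 0.73 and 0.30 on the deposited scale.

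The widest separation was between the metastatic and the in situ line. In MCF10CA1a minus MCF10DCIS, 40 of 41 differences were positive, compared with 10397 of all 13108 genes. Of the 41, 9 genes were called higher: TOP2A (1.61), UBE2C (1.55), AURKA (1.45), CDK1 (1.37), SPC25 (1.26), TPX2 (1.24), NDC80 (1.19), MKI67 (1.06) and CDCA8 (1.03). The background was 6.03% of all genes higher and 1.35% lower, and no member was lower. BUB1B alone had a negative difference (-0.05). The members' median was 0.73, beside 0.30 for all genes. After rescaling, 7 of these genes remained, without MKI67 and CDCA8, where 6.01% of all genes were higher and 2.89% lower. The medians were then 0.53 and 0.14. TOP2A, UBE2C, AURKA and CDK1 were called higher under every scaling tried, and they were the 4 genes left after quantile normalization, where 2.85% of all genes were called higher, and after median-of-ratios scaling, where 2.97% were.

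Against MCF10AT1 the same lines gave smaller counts. In MCF10DCIS minus MCF10AT1, NDC80 (-1.15), CDCA8 (-1.06) and FOXM1 (-1.01) were called lower, with 7.51% of all genes lower, and none higher, with 3.23% of all genes higher. The median was -0.47 beside -0.30, and NDC80 alone remained on the rescaled scale (-1.02), with 7.46% of all genes lower and 6.62% higher. In MCF10CA1a minus MCF10AT1, CDK1 (1.19) was the 1 gene called higher, with 6.00% of all genes higher and 3.97% lower. Its rescaled difference was 1.22, with 8.36% of all genes higher and 5.45% lower, and the members' median was 0.28 beside 0.01 for all genes on that scale. As deposited, these medians were 0.25 and 0.00. CDK1 was called higher in this comparison under every scaling tried.

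Read relative to the median of all genes tested, the members' median in MCF10CA1a minus MCF10DCIS lay 0.43 above it on the deposited scale and 0.39 above it on the rescaled one. In MCF10CA1a minus MCF10A the members lay 0.30 and 0.33 above. In MCF10DCIS minus MCF10A they lay at -0.14 and -0.08, below the median of all genes. A scaling that moves all genes alike cancels in these values, so their closeness between scales is no sign of stability.

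Neighbouring genes can differ together between related lines, so each member was set beside the genes tested within 5 Mb on either side (rescaled scale). In MCF10DCIS minus MCF10A, ANLN was at -1.53 and its 25 neighbours had a median of -0.75, with 4% of them lower than ANLN. NDC80 was at -1.27 beside -0.57 for 17 neighbours, none of which was lower. SPC25 was at -1.05 beside -0.12 for 29 neighbours, with 3.45% of them lower than SPC25. UBE2C (-0.94 beside -0.70) and TPX2 (-0.79 beside -0.62) were close to their neighbours on chromosome 20. BUB1B was at 0.89 beside 0.45 for its 84 neighbours on chromosome 15, and PTTG1 at 0.90 beside -0.05 for 18 on chromosome 5. Thus the differences of UBE2C and TPX2 were near those of their surroundings. Those of ANLN, NDC80 and SPC25 lay at or near the low end of their neighbours. PTTG1 lay near the high end, above 94.4% of its neighbours.

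In MCF10CA1a minus MCF10A, CDK1 was at 1.07 beside 0.31 for 17 neighbours, all of them lower than CDK1. PTTG1 was at 1.04 beside 0.16, with 83.3% of its neighbours lower. TOP2A was at 0.91 beside 0.32 for 156 neighbours, 83.3% of them lower. AURKA, at 0.77 beside 0.40 for 33, had 66.7% of them lower and lay within their interquartile range (0.12 to 1.00). ANLN, at -0.77, was close to its neighbours at -0.59, which differs from MCF10AT1 minus MCF10A, where it was at -1.05 and they at -0.35. PLK1 was at -0.10 while its 63 neighbours on chromosome 16 had a median of -0.42. Whether regional differences contribute to those of the members was not tested.

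**Figure D4:**
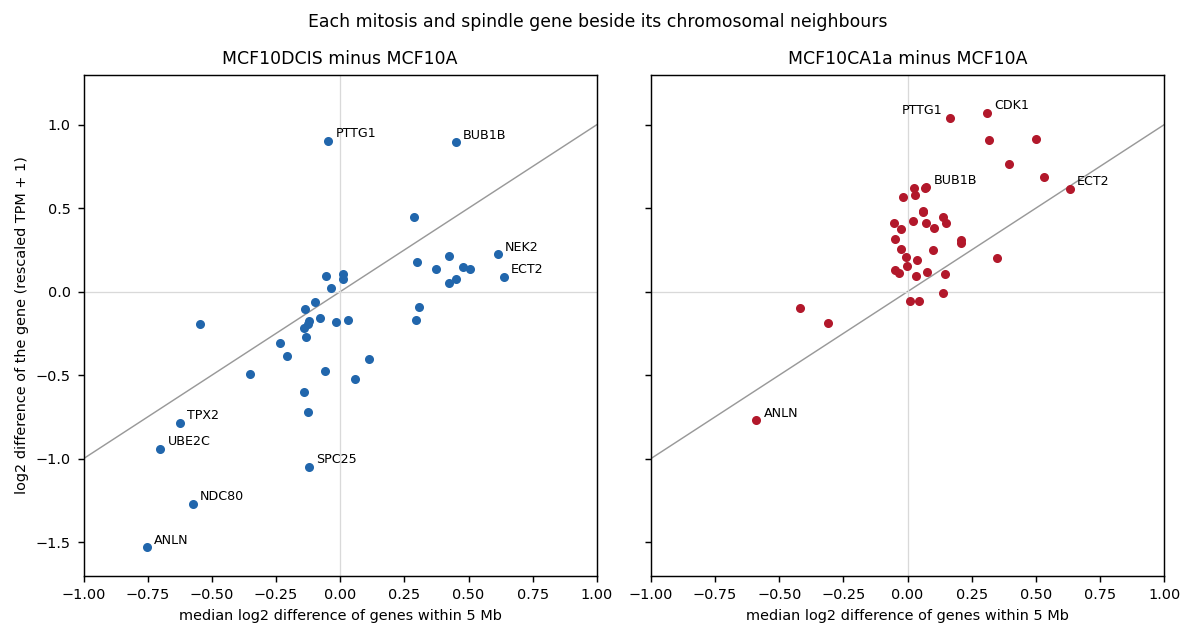
Log2 difference of each of the 41 genes (vertical, rescaled TPM + 1) against the median log2 difference of the genes tested within 5 Mb (horizontal) in MCF10DCIS and MCF10CA1a, each minus MCF10A, with a diagonal where both are equal. SPC25 (-1.05 beside -0.12) and PTTG1 (0.90 beside -0.05) lie far from the diagonal in MCF10DCIS, and UBE2C and TPX2 lie near it.

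Other cell cycle genes were read from 8 further lists with 162 genes in the table, 160 of which were tested. Condensin, which compacts chromosomes, had 1 of 8 subunits lower in MCF10DCIS minus MCF10A, NCAPG2 (36.6 TPM in MCF10A and 12.8 in MCF10DCIS, log2 difference -1.45), and a median of -0.62. Of 16 cohesin genes, 3 were lower: ESCO2, which acetylates cohesin (10.2 and 2.20 TPM, -1.80), the core subunit RAD21 (72.8 and 25.8 TPM, -1.46) and STAG1 (9.11 and 3.89 TPM, -1.05). The median of that list was -0.55. None of the 17 subunits and inhibitors of the anaphase-promoting complex was called lower in this comparison, with a median of -0.44, although FBXO5 (EMI1, its inhibitor) was at -0.99. Against MCF10AT1, FBXO5 (9.04 and 3.64 TPM, -1.11) and ANAPC2 (21.6 and 9.81 TPM, -1.07) were lower. The background for the counts in MCF10DCIS is the 14.8% of all genes lower against MCF10A and the 7.51% lower against MCF10AT1.

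Of 29 other centromere and kinetochore proteins, 8 were lower in MCF10DCIS minus MCF10A, led by CENPK (9.59 and 3.27 TPM, -1.31) and CENPN (47.4 and 18.9 TPM, -1.28), and the median was -0.54. After rescaling, 2 of the 29 were lower, with 10.3% of all genes lower. Among 31 other spindle and cytokinesis proteins, 4 were lower: FAM83D (34.1 and 11.7 TPM, -1.46), KIF22 (55.8 and 24.0 TPM, -1.18), CDCA2 (20.0 and 8.52 TPM, -1.14) and CCNF (19.4 and 8.94 TPM, -1.03). Their median was -0.59, close to that of the 41 members as deposited. On the rescaled scale it was -0.34 beside -0.17 for the members, and 1 of the 31 was lower. In MCF10CA1a minus MCF10DCIS, 4 of the 29 were higher, ZWINT (1.41), CENPK (1.25), DSN1 (1.24) and HJURP (1.06), and 1 of the 31, FAM83D (1.21), with 6.03% of all genes higher. HJURP, the chaperone that deposits CENPA, was at 12.8 TPM in MCF10A and 15.6 in MCF10AT1, against 12 in MCF10DCIS and 26.2 in MCF10CA1a, and so was highest in the same line as CENPA.

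Upstream regulators and replication genes had lower medians than the 41 members in MCF10DCIS minus MCF10A. So did the condensin, cohesin, other kinetochore and other spindle lists, on both scales. Of 19 DREAM, MYB-MuvB and E2F genes, 7 were lower and 1 higher in MCF10DCIS minus MCF10A, with a median of -0.67. The largest were E2F2 (6.17 and 0.49 TPM, -2.27) and E2F1 (11.5 and 2.11 TPM, -2.01), both activators of S-phase genes. Of 35 genes of G1/S and DNA replication, 11 were lower, with a median of -0.82, led by CCNE2, cyclin E2 (8.23 and 1.02 TPM, -2.19), and PCNA, the replication clamp (176 and 54.2 TPM, -1.68). With rescaled TPM, 5 of the 19 and 6 of the 35 were lower, where 10.3% of all genes were, with medians of -0.34 and -0.53, beside -0.17 for the 41 members.

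TFDP2, a partner of E2F proteins, was higher in each derived line than in MCF10A, at 5.34 TPM in MCF10A and 9.02 in MCF10AT1, against 18.6 in MCF10DCIS and 20.1 in MCF10CA1a. In MCF10CA1a minus MCF10A it was called higher (1.73) with E2F7, a late repressor of E2F targets (4.71 and 11.4 TPM, 1.12), while E2F2 was lower (6.17 and 1.52 TPM, -1.51), with 5.97% of all genes higher and 7.14% lower. Of the 35 replication genes, 1 was lower there, CCNE2 (-1.11), a smaller share than the 7.14% of all genes, and the list's median was -0.27, on the other side of 0 from the members' 0.22. These medians were -0.13 and 0.37 on the rescaled scale. In MCF10CA1a minus MCF10DCIS, 5 of the 35 were higher, led by CDC6 (1.52), a loader of the replicative helicase, and PCNA (1.41), with 6.03% of all genes higher, and the median was 0.56.

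Of 7 CDK inhibitors, 5 were tested. CDKN1B, p27, was at 11.8 TPM in MCF10A and 4.20 in MCF10DCIS (-1.30), and CDKN2C, p18, at 8.68 and 3.02 (-1.27), and both were called lower, with 14.8% of all genes lower. CDKN2A and CDKN2B did not reach 1 TPM in any line. The plot of lists sets these groups beside the 41 members.

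**Figure D5:**
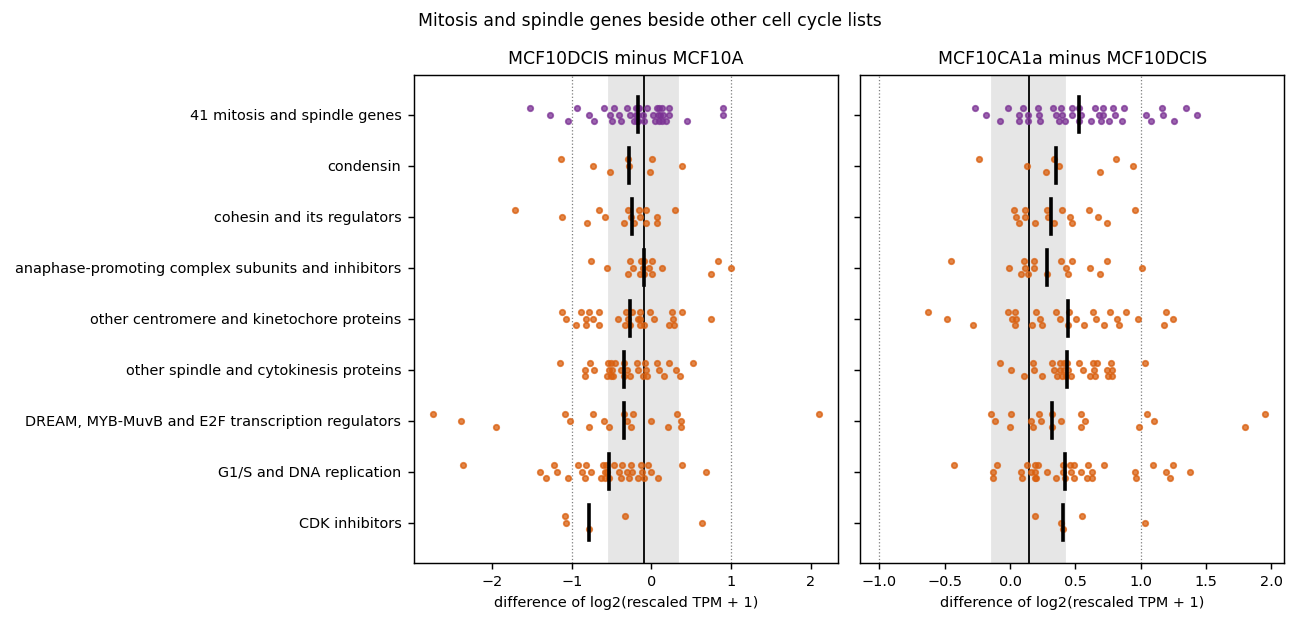
Difference of log2(rescaled TPM + 1) for the 41 mitosis and spindle genes (purple) and 8 other cell cycle lists (orange), 1 point per gene, with a black bar at each list's median and, in grey, the interquartile range and the median of all genes tested, for MCF10DCIS minus MCF10A and MCF10CA1a minus MCF10DCIS. In the first panel the replication list (median -0.53) lies lower than the 41 members (-0.17), and in the second the members have a median of 0.53 beside 0.14 for all genes.

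Epithelial markers summed to 1572 to 2717 TPM in the 4 lines. KRT5, KRT8, KRT18, EPCAM and CDH1 exceeded 1 TPM in every line, whereas KRT19 was at 5.76 TPM in MCF10A and 0.419 in MCF10AT1, against 0.688 in MCF10DCIS and 0.616 in MCF10CA1a. Of 5 leukocyte markers 2 reached 1 TPM in a line (sums of 6.25 to 17.4 TPM), of 5 fibroblast markers 1 (0.814 to 3.52 TPM) and of 4 endothelial markers 1 (0.936 to 4.75 TPM). No marker was at 0 in all lines.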

How the data were processed

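RNA from 4 cell lines was measured as bulk RNA-seq, with 3 libraries per line by the labels. STAR and edgeR were among the tools and hg38 was the build, per the submitters' processing notes; neither their versions nor the counting program, annotation and strand setting have a source here. The authors deposited TPM as 1 mean per line, each column summing to 1000000. TPM keeps no read counts, so the depth is unknown and no interval or detection limit is given, and no p-value was computed because values per library were not used here.

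From these means, log2(TPM + 1) was differenced for all 6 pairs of lines over the 13108 genes with at least 1 TPM in a line, using Python 3.11.15, pandas 2.3.3 and numpy 2.4.6. A difference of at least 1 was counted. The differences of low genes are understated by the pseudocount of 1. Rescaled TPM left out structural and small non-coding, mitochondrially encoded and ribosomal protein RNAs, which leaves 12909 genes tested. RNA classes, gene positions and neighbours came from GENCODE release 29, matched by symbol (54529 of 59427), and promoters from RefSeq. The differencing and the rule of size were tested on copies of the MCF10A values with set folds. The other steps were not tested this way. Members and lists were chosen with earlier results of these data known. Every member could be named, and of another list the 2 genes with the largest difference, or all past the rule where there were at most 4. FBXO5 against MCF10A, TFDP2 and HJURP by line, the CDK inhibitors below 1 TPM and the promoters shown were named after their values were seen. Alternatives were the pseudocount, the filter, the scaling and the size counted.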

Additional observations from a re-analysis of the deposited data

How the results depend on the processing

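The 6 settings were a pseudocount of 0.1, testing without a filter, a minimum of 5 TPM, quantile normalization, scaling by median of ratios, and rescaled TPM. The largest shift of a difference under any of them was 0.45, so a called difference could not reverse its sign. Of the 20 called differences among 246 (41 genes in 6 pairs), 20 stayed past the rule of size under each of the first 3. Those settings could not lose one, since a smaller pseudocount only widens a difference and neither filter changed a member's value. The scalings kept 8 after quantile normalization, 8 after median-of-ratios scaling and 13 on rescaled TPM. Among the differences not counted, 43, 43 and 32 changed sign under those 3 scalings, the largest of them 0.41 in size as deposited. With quantile normalization the members' medians were 0.17 in MCF10AT1 minus MCF10A, -0.10 in MCF10DCIS minus MCF10A, -0.19 in MCF10DCIS minus MCF10AT1 and 0.40 in MCF10CA1a minus MCF10DCIS. The counts were 2 lower in MCF10DCIS minus MCF10A (6.22% of all genes) and 1 higher in MCF10CA1a minus MCF10A (6.42%). They were 0 lower in MCF10DCIS minus MCF10AT1 (4.33%) and 4 higher in MCF10CA1a minus MCF10DCIS (2.85%). With median-of-ratios scaling the medians were -0.086 in MCF10DCIS minus MCF10A, -0.13 in MCF10DCIS minus MCF10AT1 and 0.38 in MCF10CA1a minus MCF10DCIS. The counts in the same order were 2 lower (6.60% of all genes), 0 lower (4.13%) and 4 higher (2.97%). On rescaled TPM the medians were 0.16 in MCF10AT1 minus MCF10A, -0.17 in MCF10DCIS minus MCF10A, 0.37 in MCF10CA1a minus MCF10A, -0.26 in MCF10DCIS minus MCF10AT1 and 0.53 in MCF10CA1a minus MCF10DCIS. The counts there were 3 lower in MCF10DCIS minus MCF10A (10.3% of all genes), 2 higher in MCF10CA1a minus MCF10A (9.46%) and 1 lower in MCF10DCIS minus MCF10AT1 (7.46%). A pseudocount of 0.1 gave 5 lower in MCF10DCIS minus MCF10AT1 (13.5% of all genes). Counting 1.5-fold differences gave 14 lower in MCF10DCIS minus MCF10A (35.4% of all genes), 5 higher (13.0%) and 1 lower (17.6%) in MCF10CA1a minus MCF10A, 18 lower in MCF10DCIS minus MCF10AT1 (26.0%), 5 higher in MCF10CA1a minus MCF10AT1 (13.0%) and 26 higher in MCF10CA1a minus MCF10DCIS (21.7%). These scalings move all genes together: the median of all genes in MCF10DCIS minus MCF10A was -0.38 as deposited, -0.09 on rescaled TPM and -0.01 after median-of-ratios scaling. Any further cause was not tested. Leaving out single libraries was not run, since the table holds means. No paired analysis was possible because the columns carry no replicate numbers.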
